A study of Homo sapiens with 8 samples.

Results

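The KEAP1-NRF2 programme was followed over 33 genes in A549, a long-established cell line from a human lung adenocarcinoma. The members were the regulator pair NFE2L2 and KEAP1 and 31 genes of glutathione, thioredoxin, NADPH, carbonyl, aldehyde, haem and iron metabolism, taken by gene symbol from the 17056 genes of the deposited table. All 33 symbols were found, and 32 passed the minimum mean of 1 FPKM used for testing, GSTM3 being the exception. FPKM is a read count scaled by gene length and library size, so levels can be compared between genes. Summed FPKM ran from 371927 to 437924 per library and was higher in the knockdown arm, so differences between libraries depend on the scaling.

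The study raised or lowered AFAP1-AS1, a long non-coding RNA antisense to AFAP1, with 2 RNA-seq libraries in each of 4 groups. In the vector arm, cells with AFAP1-AS1 overexpression (OE) were set against cells with vector alone. In the knockdown arm, cells with AFAP1-AS1 knockdown (ASO) were set against a negative control of knockdown (ASONC). ASO is a usual short form of antisense oligonucleotide, but the labels do not spell it out. The labels give no dose, time or clone, and the replicates are not said to come from separate cultures, so a p-value here reflects only library-to-library spread and that spread may be technical. In bulk RNA, fewer cells expressing a gene and less of its RNA per cell cannot be told apart. AFAP1-AS1 itself was not analysed here, so its level could not be used to check the labels.

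NRF2, the product of NFE2L2, is a transcription factor that with small MAF proteins binds antioxidant response elements and switches on genes of glutathione synthesis, peroxide removal, NADPH supply and drug detoxification. KEAP1 holds it down by handing it to a CUL3 ubiquitin ligase, and electrophiles or oxidants release it. A549 is known to carry an inactivating KEAP1 mutation, so that NRF2 is active without stress and its targets are transcribed at a high level.

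Recovered reads ran from 33662221 to 37508996 per library. The knockdown control libraries had fewer genes at 0, 1435 and 1341 against 2205 to 2327 in the other 6. By calls it was the arms that stood apart: of all 10648 genes tested, 68.6% were called between the knockdown control and the vector control and 62.9% between knockdown and the vector control, against 22.2% between knockdown and its control. The vector and knockdown arms differ in the agent given and may differ in handling, which cannot be told apart. Knockdown is therefore given below against both controls. Fold changes also followed gene length and GC content across all genes tested, with Spearman rho of 0.24 and -0.46 in knockdown against knockdown control and -0.47 and 0.54 in knockdown control against vector control. As a check of the cell line, 3 of 6 epithelial markers were high, with medians of 1104 FPKM for KRT7, 1218 for KRT8 and 1131 for KRT18. The other 3 were low, with medians of 2.90 FPKM for KRT19, 2.66 for CDH1 and 0.574 for EPCAM. CDKN2A, which is deleted in A549, reached at most 0.0384 FPKM. Of 7 alveolar type 2 markers, the surfactant genes SFTPA1, SFTPB and SFTPC were at 0 in 7 of 8 libraries each, SFTPD, NKX2-1 and NAPSA reached at most 0.128, 0.331 and 0.978 FPKM, and ABCA3 lay between 8.01 and 10.1 FPKM. The leukocyte gene PTPRC was at 0 in 7 of 8 libraries. Among blood markers, LYZ and PTPRC were at or near 0, while CD68, a lysosomal protein gene of macrophages that tumour cells can also express, carried the list: the list's sum was 64.1 to 65.4 FPKM with knockdown, 89.3 to 90.1 in the knockdown control and 48.8 to 50.2 in the vector control. Its part in the results below was not tested.

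The stretches below are shown because they hold the letters of the core antioxidant response element near the start site of a member. The motif TGACNNNGC was searched on both strands in promoter sequences from RefSeq (GRCh38.p14), from 250 bases before to 50 bases after each start. It was found in 9 of the 26 members with an entry (34.6%), against 16.1% of all 27305 genes with an entry and 13.3% of all 35116 promoters. SLC7A11, GSR, PRDX1, AKR1B10, ALDH3A1, HMOX1 and FTH1 had no entry. A match is a run of letters, not a measured binding site, and elements outside this window were not searched. Each line runs 5′ to 3′ on the strand of the gene, and capitals mark the match, printed as its reverse complement where the motif lies on the opposite strand. KEAP1, ME1 and TXNRD1 had more than 1 match.
CBR1, chr21:36069839-36069899 (plus strand): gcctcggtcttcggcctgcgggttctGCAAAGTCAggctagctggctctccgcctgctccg
EPHX1, chr1:225825250-225825310 (plus strand): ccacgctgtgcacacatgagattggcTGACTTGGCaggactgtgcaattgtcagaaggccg
GCLM, chr1:93909430-93909490 (minus strand): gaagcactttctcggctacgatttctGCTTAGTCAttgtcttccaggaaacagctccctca
GPX2, chr14:64942833-64942893 (minus strand): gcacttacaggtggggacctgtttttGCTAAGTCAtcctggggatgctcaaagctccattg
IDH1, chr2:208255180-208255240 (minus strand): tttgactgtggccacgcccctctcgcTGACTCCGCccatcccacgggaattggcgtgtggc
KEAP1, chr19:10502791-10502851 (minus strand): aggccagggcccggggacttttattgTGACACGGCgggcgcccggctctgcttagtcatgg
KEAP1, chr19:10502768-10502828 (minus strand): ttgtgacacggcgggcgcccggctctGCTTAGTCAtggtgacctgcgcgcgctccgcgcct
ME1, chr6:83431154-83431214 (minus strand): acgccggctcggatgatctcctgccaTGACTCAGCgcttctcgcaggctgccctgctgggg
ME1, chr6:83431006-83431066 (minus strand): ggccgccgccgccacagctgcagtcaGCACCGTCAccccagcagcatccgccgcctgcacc
PGD, chr1:10398837-10398897 (plus strand): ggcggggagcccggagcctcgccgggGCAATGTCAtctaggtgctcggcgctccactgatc
TXNRD1, chr12:104215654-104215714 (plus strand): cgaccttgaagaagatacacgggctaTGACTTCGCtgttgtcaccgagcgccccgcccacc
TXNRD1, chr12:104215745-104215805 (plus strand): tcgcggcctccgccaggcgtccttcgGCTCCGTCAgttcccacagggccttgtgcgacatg
TXNRD1, chr12:104286904-104286964 (plus strand): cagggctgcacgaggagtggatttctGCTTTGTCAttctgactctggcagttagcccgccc

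The matches lay in genes that moved differently between groups. Set against the vector control, the knockdown control was called lower for TXNRD1, EPHX1, GCLM, PGD and KEAP1 and higher for IDH1 and CBR1, while GPX2 and ME1 were not called. GCLC and UGDH, the members with the largest increases in knockdown against its control, had no match in this window.

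**Figure D1:**
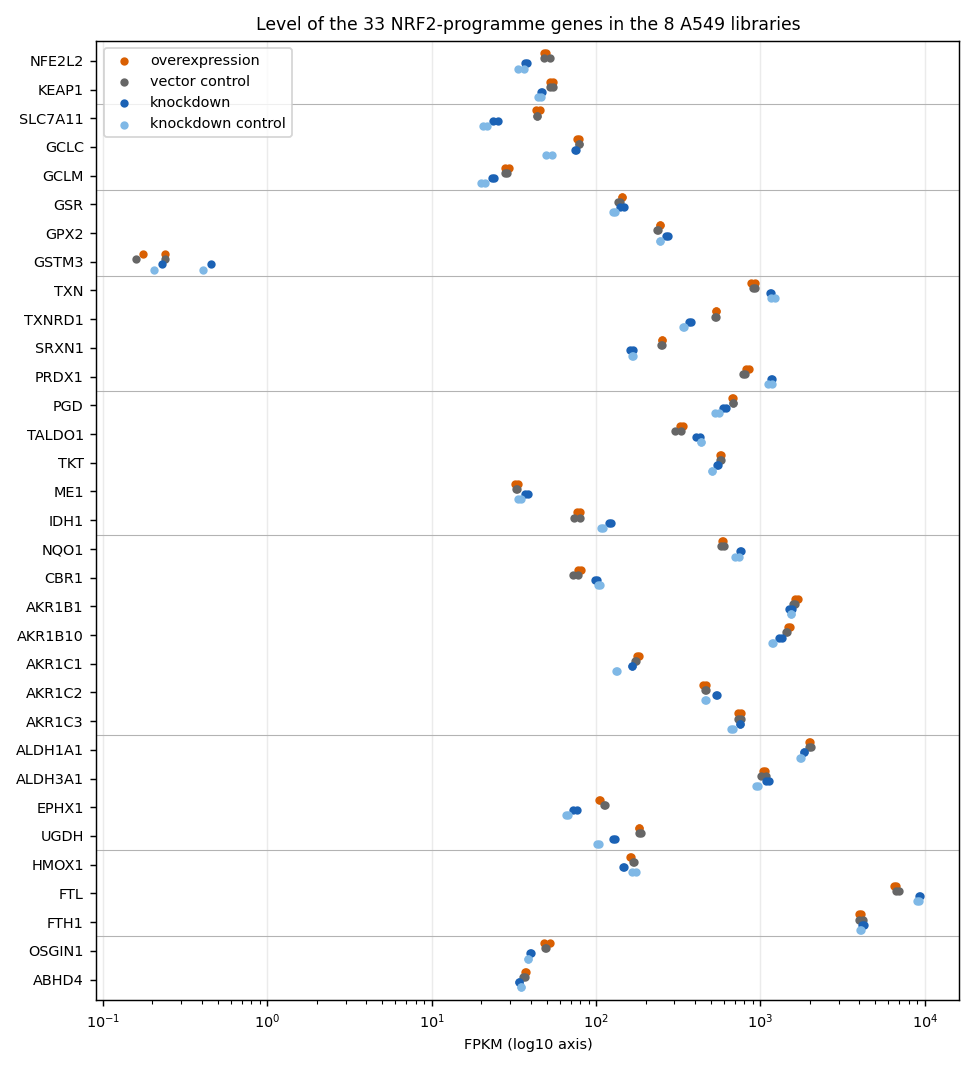
FPKM of each of the 33 members (rows, grouped by role and separated by lines) in the 8 libraries, on a log10 axis, with colours for the 4 groups. FTL lies furthest right, between 6472 and 9375 FPKM, and GSTM3 furthest left, below 0.5 FPKM.

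These genes were among the most abundant transcripts of the cells. Ferritin light chain, FTL, ranked 1 of 17056 genes by mean FPKM over the 8 libraries and ferritin heavy chain, FTH1, ranked 4. The aldehyde dehydrogenase gene ALDH1A1 ranked 15 and the aldose reductase genes AKR1B1 and AKR1B10 ranked 25 and 34. In all, 15 of the 33 members stood in the top 1% of genes and 28 in the top 10%, with a median member level of 208 FPKM against 9.39 FPKM over all genes tested. The 33 genes held 6.44% and 6.42% of summed FPKM in the knockdown libraries, against 5.95% and 6.003% in the knockdown control libraries. With overexpression they held 6.40% and 6.47%, and in the vector control 6.52% and 6.46%.

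The scarcest member was GSTM3, a mu-class glutathione transferase gene. It had 0.175 and 0.239 FPKM with overexpression, 0.158 and 0.237 FPKM in the vector control, 0.229 and 0.456 FPKM with knockdown and 0.204 and 0.408 FPKM in the knockdown control. These values stand for between 22 and 67 reads per library, and the libraries of all 4 groups overlap. GCLM (25.3 FPKM on average) and SLC7A11 (33.5 FPKM) were the next lowest.

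Overexpression of AFAP1-AS1 left no member past the threshold. Of 32 tested members 0 were called higher and 0 lower by limma at an adjusted p below 0.05, where 0.0657% and 0.0% of all genes were. On recovered reads, voom also called 0 members higher and 0 lower, where 22 and 5 of all 10648 genes were. EPHX1, the microsomal epoxide hydrolase gene, was the 1 member with an unadjusted limma p below 0.05, where 738 of all 10648 genes were below it. It had 104 and 105 FPKM with overexpression, against 113 and 111 FPKM in the vector control (-0.10 ± 0.04, limma adjusted p = 0.623). PRDX1 had 814 and 846 FPKM with overexpression, against 778 and 805 FPKM in the vector control (0.069 ± 0.035, limma adjusted p = 0.742), and CBR1 had 77.5 and 81.4 FPKM, against 72.6 and 77.7 FPKM in the vector control (0.08 ± 0.044, limma adjusted p = 0.802). The overexpression and vector control libraries did not overlap for EPHX1 and PRDX1 and did for CBR1. The median over the members was 0.009 on the log2 scale, against 0.0024 over all genes. The largest absolute change of a member was 0.10 on that scale. Both overexpression libraries lay above both vector control libraries for 7 members, where 18.2% of all genes did so, and below them for 3, where 16.9% did.

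With AFAP1-AS1 knockdown, much of the programme was higher than in its control. Of 32 tested members 17 rose, where 11.3% of all genes did, and 1 fell, where 10.9% did (18 called in either direction, against 22.2% of all genes). Both knockdown libraries lay above both knockdown control libraries for 24 members, where 34.4% of all genes did so, and below them for 5, where 28.1% did. The median member was at 0.12 on the log2 scale, against 0.016 over all genes, and 25 of 32 members were above 0. The increases were modest, between 0.10 for TKT and 0.53 for GCLC. Leaving out any 1 of the 4 libraries compared left 1 library in a group. Fewer members were then called, and fewer of all genes were too. Some calls were lost in these fits, as given gene by gene below. The median member in them lay between 0.10 and 0.13, against 0.014 to 0.019 over all genes. GCLC, UGDH, AKR1C1, AKR1C2, ALDH3A1 and AKR1B10 were called in all 18 alternatives tried.

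The knockdown control lay below the vector control for most members. Of 32 members 18 fell there, where 31.8% of all genes did, and 7 rose, where 36.8% did (median -0.15, against 0.037 over all genes). The libraries of these groups did not overlap for 9 members that were higher and 20 that were lower, where 45.4% and 39.4% of all genes were so. Knockdown against the vector control called 14 lower, where 28.8% of all genes were, and 10 higher, where 34.1% were (median -0.07, against 0.034), so 24 were called in either direction, where 62.9% of all genes were. Here 11 members were higher without overlap and 18 lower, where 44.0% and 38.1% of all genes were so. These 2 comparisons share the vector control libraries. With knockdown against knockdown control, the first shares the knockdown control libraries and the second the knockdown libraries. Their values are therefore given side by side for each gene and not combined. Values rescaled to a fixed sum per library (TPM) shifted the median of all genes by -0.20 in knockdown control against vector control, to -0.16. That fit called 25 members lower and 7 higher, where 5085 and 2360 of all 10648 genes were. Against the vector control, knockdown then called 22 lower and 7 higher, where 4566 and 2136 of all genes were. The median of all genes was then -0.13, and the calls of GPX2, ME1 and AKR1C2 were lost. Of all genes called, 53.6% were higher in knockdown control against vector control and 31.7% with TPM scaling; in knockdown against vector control these shares were 54.2% and 31.9%.

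**Figure D2:**
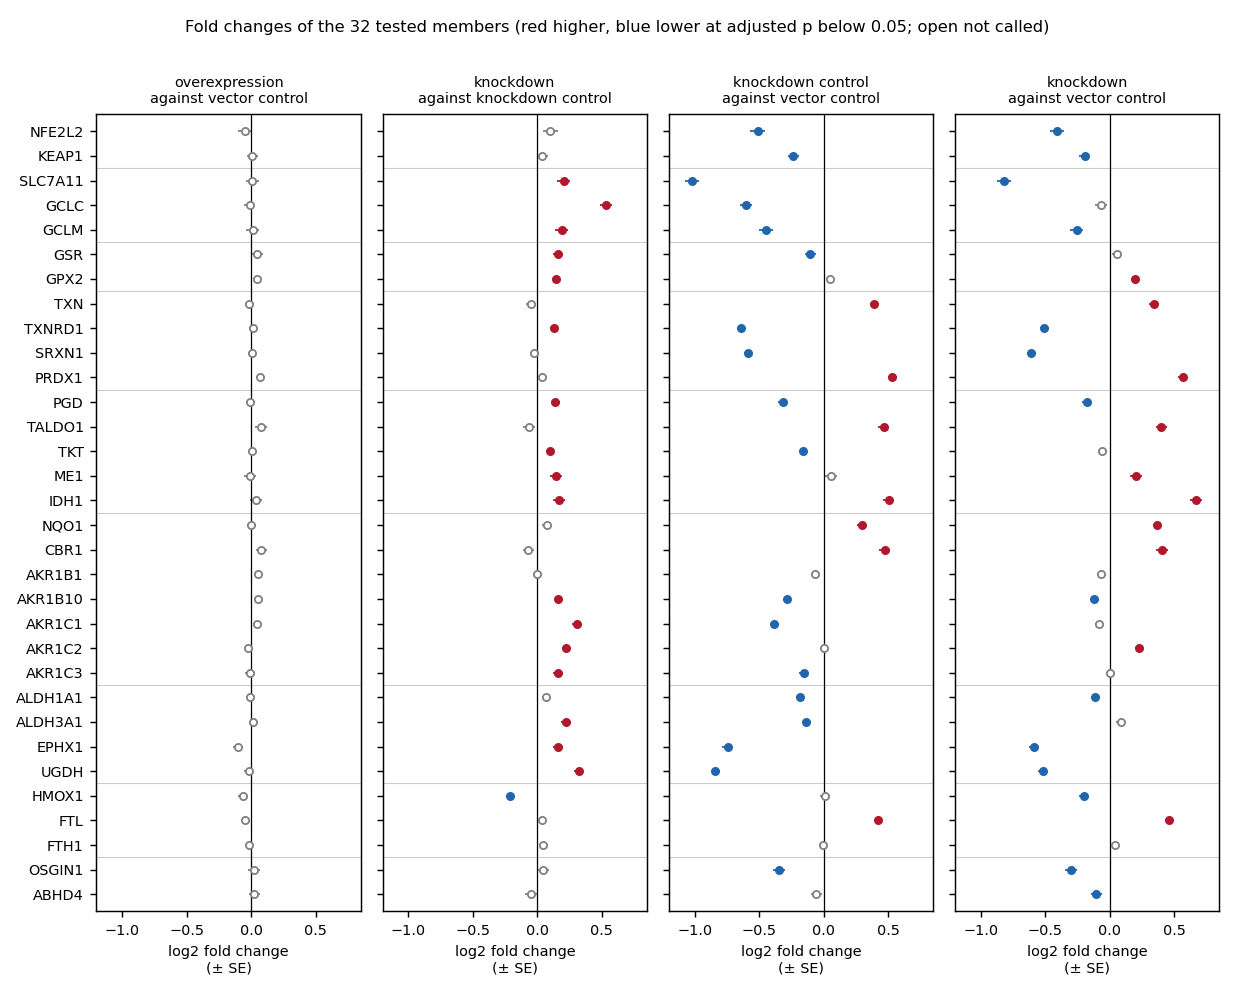
Log2 fold change (x axis, ± SE) of each tested member (rows, by role) in 4 comparisons. Red marks members called higher and blue members called lower at a limma adjusted p below 0.05, and open grey points were not called. The overexpression panel holds no called member, and in the second panel 17 members lie right of 0 in red and HMOX1 left of it in blue.

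The regulators themselves did not pass the test in knockdown against its control. NFE2L2 had 36.9 and 38.2 FPKM in the knockdown libraries, against 36.5 and 33.5 FPKM in the knockdown control libraries (0.10 ± 0.055, limma adjusted p = 0.213). With overexpression it had 48.1 and 49.3 FPKM, against 48.2 and 52.5 FPKM in the vector control. Both libraries of each knockdown arm group lay below those of the vector arm, and NFE2L2 was lower than in the vector control in the knockdown control (-0.51 ± 0.055, limma adjusted p = 5.78e-06) and with knockdown (-0.41 ± 0.055, limma adjusted p = 4.84e-05). KEAP1 had 46.9 and 46.2 FPKM with knockdown, against 44.6 and 46.01 FPKM in the knockdown control (0.038 ± 0.044, limma adjusted p = 0.574), and 52.8 and 54.9 FPKM with overexpression, against 52.3 and 54.7 FPKM in the vector control. It too was lower than in the vector control in both knockdown arm groups, by 0.23 in the knockdown control and by 0.20 with knockdown. The exons of NFE2L2 share 20.9% of their length with other annotated genes, AGPS and AC079305.1 antisense to it among them. Strand use in counting was looked for but not given in the sources used here.

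All 3 members of cystine import and glutathione synthesis rose with knockdown against its control, where 11.3% of all genes did. GCLC, the catalytic subunit of glutamate-cysteine ligase and the rate-limiting step of glutathione synthesis (chromosome 6, 53497341 to 53616970, minus strand, GRCh38), had 74.3 and 75.4 FPKM with knockdown, against 53.7 and 49.3 FPKM in the knockdown control (0.53 ± 0.045, limma adjusted p = 9.49e-06). It had 79.1 and 76.8 FPKM with overexpression, against 78.6 and 78.6 FPKM in the vector control. The knockdown control libraries were the low ones, and the knockdown libraries lay just under the vector arm: GCLC fell by 0.60 in the knockdown control against the vector control (limma adjusted p = 3.03e-07), and knockdown against the vector control stood at -0.07 ± 0.045, limma adjusted p = 0.199. The sign of that difference depends on the scaling: it was called lower with TPM scaling (-0.25) and higher with a correction for gene length and GC content (0.15). The call against the knockdown control held in all 18 alternatives, with fold changes between 0.44 and 0.59.

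GCLM encodes the modifier subunit of the same enzyme. It had 23.2 and 24.1 FPKM with knockdown, against 20.01 and 21.2 FPKM in the knockdown control (0.19 ± 0.052, limma adjusted p = 0.0233), and 27.99 and 29.4 FPKM with overexpression, against 28.9 and 28.00 FPKM in the vector control. SLC7A11, the cystine-glutamate exchanger that supplies cysteine for glutathione, had 23.7 and 25.3 FPKM with knockdown, against 20.5 and 21.8 FPKM in the knockdown control (0.20 ± 0.053, limma adjusted p = 0.0177). In the vector arm SLC7A11 had 45.6 and 42.9 FPKM with overexpression, against 43.98 and 43.9 FPKM in the vector control. As deposited, both genes stayed below the vector control with knockdown, SLC7A11 at -0.82 ± 0.053, limma adjusted p = 1.83e-07 and GCLM at -0.26 ± 0.052, limma adjusted p = 0.001. In the knockdown control SLC7A11 was at -1.02 ± 0.053, limma adjusted p = 1.65e-08 and GCLM at -0.45 ± 0.052. With a correction for gene length and GC content, SLC7A11 and GCLM were no longer called against the knockdown control (0.017 and 0.071), while GCLC was (0.44). The correction also ended the call of GCLM between knockdown and the vector control (-0.076). The calls of SLC7A11 and GCLM against the knockdown control were also lost without knockdown replicate 2 or knockdown control replicate 1, and that of GCLM without knockdown replicate 1.

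Among genes that use and recycle glutathione, both tested members rose with knockdown against its control, where 11.3% of all genes did. GSR, glutathione reductase, had 139 and 149 FPKM with knockdown, against 128 and 130.1 FPKM in the knockdown control (0.16 ± 0.039, limma adjusted p = 0.0145), and 143 and 143 FPKM with overexpression, against 137 and 140.0 FPKM in the vector control. GPX2, a glutathione peroxidase that removes hydroperoxides, had 274 and 267 FPKM with knockdown, against 246 and 244 FPKM in the knockdown control (0.14 ± 0.032, limma adjusted p = 0.00886), and 245 and 244 FPKM with overexpression, against 234 and 239 FPKM in the vector control. For GPX2 the knockdown libraries were the highest of the 8, and knockdown against the vector control was also called (0.19 ± 0.032, limma adjusted p = 0.000265). That call was lost with TPM scaling (0.018) and turned round to -0.13 with the length and GC correction. GSR did not pass in knockdown against the vector control (0.057 ± 0.039, limma adjusted p = 0.23). Against the knockdown control, the GSR call was lost without knockdown replicate 2 or knockdown control replicate 1, and the GPX2 call without knockdown replicate 1 or knockdown control replicate 2.

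The 4 thioredoxin genes fell on both sides of the vector control. TXNRD1, the cytosolic thioredoxin reductase, was the 1 of 4 members that rose with knockdown against its control, where 11.3% of all genes did. Its knockdown libraries had 369 and 377 FPKM, against 340.1 and 341 FPKM in the knockdown control (0.13 ± 0.03, limma adjusted p = 0.00912). TXNRD1 had 539 and 536 FPKM with overexpression, against 528 and 535 FPKM in the vector control. Knockdown thus stayed well below the vector control (-0.51 ± 0.03, limma adjusted p = 9.46e-08), with the knockdown control lower still (-0.64 ± 0.03). The call against the knockdown control was lost without knockdown replicate 2. SRXN1, the sulfiredoxin that repairs over-oxidised peroxiredoxins, had 161 and 167 FPKM with knockdown, against 165 and 168 FPKM in the knockdown control (-0.024 ± 0.034, limma adjusted p = 0.653), and 252 and 251 FPKM with overexpression, against 249 and 253 FPKM in the vector control. It was lower than in the vector control in both knockdown arm groups, at -0.59 ± 0.034 in the knockdown control and -0.61 ± 0.034, limma adjusted p = 6.77e-08 with knockdown. An overlapping annotation, AL121758.1, covers 84.95% of SRXN1 exonic bases, so its count depends on how shared reads were assigned.

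Thioredoxin and peroxiredoxin transcripts lay on the other side of the vector control. TXN, which encodes thioredoxin, had 1139.7 and 1165 FPKM with knockdown, against 1167 and 1218 FPKM in the knockdown control (-0.049 ± 0.036, limma adjusted p = 0.363), and 872 and 926 FPKM with overexpression, against 895 and 921 FPKM in the vector control. PRDX1, a peroxiredoxin that reduces hydrogen peroxide with thioredoxin, had 1163 and 1182 FPKM with knockdown, against 1118 and 1173 FPKM in the knockdown control (0.034 ± 0.035, limma adjusted p = 0.52). Both were higher than in the vector control: PRDX1 at 0.53 ± 0.035 in the knockdown control and 0.57 ± 0.035, limma adjusted p = 1.23e-07 with knockdown, TXN at 0.39 ± 0.036 in the knockdown control and 0.34 ± 0.036, limma adjusted p = 7.79e-06 with knockdown. These are short transcripts, with exonic lengths of 1142 bases for TXN and 1522 for PRDX1, against 6708 for TXNRD1. With the length and GC correction, PRDX1 was at 0.17 and TXNRD1 at -0.44 in knockdown control against vector control, both called. Exons of MMACHC, antisense to PRDX1, cover 24.9% of its exonic bases.

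Of the 5 genes of NADPH supply, 4 rose with knockdown against its control, where 11.3% of all genes did. PGD, the 6-phosphogluconate dehydrogenase of the oxidative pentose phosphate pathway, had 613 and 589 FPKM with knockdown, against 561 and 531 FPKM in the knockdown control (0.14 ± 0.035, limma adjusted p = 0.0137), and 679 and 676 FPKM with overexpression, against 680.1 and 680.3 FPKM in the vector control. IDH1, the cytosolic isocitrate dehydrogenase, had 124 and 121 FPKM with knockdown, against 107 and 111 FPKM in the knockdown control (0.17 ± 0.045, limma adjusted p = 0.0231), and 76.9 and 80.4 FPKM with overexpression, against 73.6 and 79.4 FPKM in the vector control. The 2 genes lay on opposite sides of the vector control, PGD below it with knockdown (-0.18 ± 0.035, limma adjusted p = 0.00079) and IDH1 above it (0.67 ± 0.045, limma adjusted p = 2.62e-07). Malic enzyme ME1 averaged 37.9 ± 1.02 FPKM with knockdown and 34.2 ± 1.01 FPKM in the knockdown control (SD, n = 2; 0.15 ± 0.046, limma adjusted p = 0.0425), a call lost when any 1 of the 8 libraries was left out. Transketolase, TKT, averaged 546 ± 5.81 FPKM with knockdown and 509 ± 0.713 FPKM in the knockdown control (0.10 ± 0.029, limma adjusted p = 0.0313). The TKT call was lost without any 1 of the 4 libraries compared, that of PGD without knockdown replicate 1 or knockdown control replicate 2, and that of IDH1 without knockdown replicate 1, knockdown replicate 2 or knockdown control replicate 1. Transaldolase, TALDO1, did not pass against the knockdown control (-0.065 ± 0.045, limma adjusted p = 0.324) and was above the vector control with knockdown (0.40 ± 0.045, limma adjusted p = 1.14e-05).

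Quinone and carbonyl reductases were among the most abundant members, and 4 of 7 rose with knockdown against its control, where 11.3% of all genes did. All 4 were aldo-keto reductases. AKR1C1, which reduces steroids and carbonyls, had 165 and 164 FPKM with knockdown, against 134 and 132 FPKM in the knockdown control (0.30 ± 0.034, limma adjusted p = 8.17e-05), and 178 and 182 FPKM with overexpression, against 175 and 173 FPKM in the vector control. Its neighbour AKR1C2 had 542 and 540.2 FPKM with knockdown, against 462 and 464 FPKM in the knockdown control (0.22 ± 0.031, limma adjusted p = 0.000446), and 447 and 463 FPKM with overexpression, against 458 and 468 FPKM in the vector control. The knockdown control was low for AKR1C1, whereas for AKR1C2 the knockdown libraries were high and the other 6 libraries lay between 447 and 468 FPKM. AKR1C1 was at -0.39 ± 0.034, limma adjusted p = 9.87e-07 in knockdown control against vector control, a call lost with the length and GC correction (-0.039), with which AKR1C1 was called higher in knockdown against vector control (0.16). AKR1C3 averaged 749.9 ± 1.72 FPKM with knockdown and 671 ± 14.9 FPKM in the knockdown control (SD, n = 2; 0.16 ± 0.036, limma adjusted p = 0.00814). The 3 genes lie together on chromosome 10 between 4963253 and 5107686 (GRCh38) and share sequence: 28.3% of the 50-base windows of the longest coding AKR1C1 transcript occur in AKR1C2 transcripts, and 50.8% of AKR1C2 windows in AKR1C1 transcripts. Their separate levels are therefore uncertain. The AKR1C3 call was lost without knockdown replicate 2 or knockdown control replicate 1.

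AKR1B10 and AKR1B1 are neighbours on chromosome 7. AKR1B10, which reduces retinal and lipid aldehydes, averaged 1325 ± 31.7 FPKM with knockdown and 1187 ± 14.9 FPKM in the knockdown control (SD, n = 2; 0.16 ± 0.03, limma adjusted p = 0.00352). In the vector control it averaged 1444 ± 10.3 FPKM, and both knockdown arm groups were below that level, the knockdown control by a log2 fold change of -0.28 ± 0.03 and knockdown by -0.12 ± 0.03 (limma adjusted p = 0.00377). AKR1B1, aldose reductase, averaged 1527 ± 39.7 FPKM with knockdown and 1530.1 ± 2.66 FPKM in the knockdown control (-0.0028 ± 0.032, limma adjusted p = 0.963), and its groups overlap. NQO1, the quinone reductase often used as a readout of NRF2, averaged 757 ± 5.67 FPKM with knockdown and 720.5 ± 21.6 FPKM in the knockdown control (0.072 ± 0.033, limma adjusted p = 0.145), and 587 ± 4.22 FPKM with overexpression and 587 ± 17.6 FPKM in the vector control. NQO1 was above the vector control in the knockdown control (0.30 ± 0.033) and with knockdown (0.37 ± 0.033, limma adjusted p = 2.28e-06). CBR1, carbonyl reductase, had 98.6 and 101 FPKM with knockdown, against 103 and 106 FPKM in the knockdown control (-0.071 ± 0.044, limma adjusted p = 0.279), and was likewise above the vector control in the knockdown control (0.47 ± 0.044) and with knockdown (0.40 ± 0.044).

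**Figure D3:**
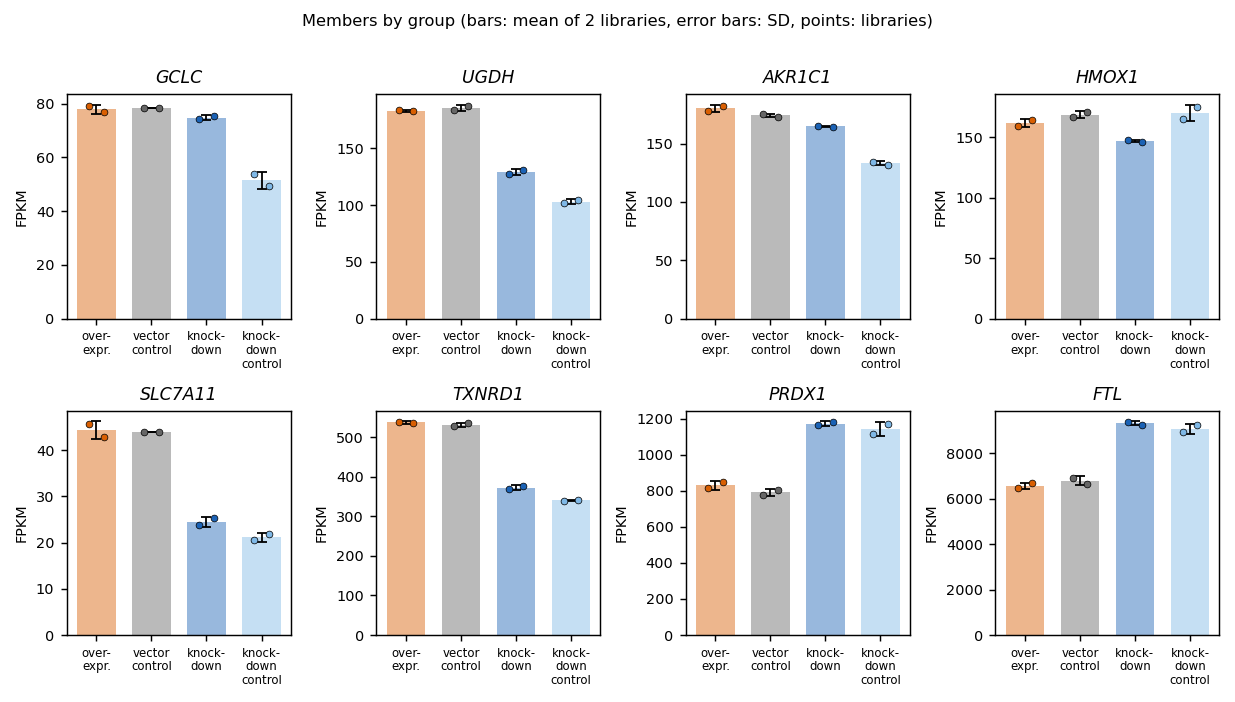
FPKM (y axes from 0) of 8 members in the 4 groups. Bars are means of 2 libraries, error bars SD and points the libraries. GCLC, UGDH and AKR1C1 are lowest in the knockdown control, HMOX1 is lowest with knockdown, SLC7A11 and TXNRD1 are lower in both knockdown arm groups than in the vector arm, and PRDX1 and FTL are higher in both.

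Of 4 genes of aldehyde, epoxide and glucuronic acid metabolism, 3 rose with knockdown against its control, where 11.3% of all genes did. UGDH makes the UDP-glucuronate that glucuronidation and glycosaminoglycan synthesis use. It had 127 and 131 FPKM with knockdown, against 101 and 105 FPKM in the knockdown control (0.32 ± 0.036, limma adjusted p = 8.6e-05), and 183 and 183 FPKM with overexpression, against 183 and 187 FPKM in the vector control. Knockdown stood between the controls, below the vector control (-0.52 ± 0.036, limma adjusted p = 2.78e-07), while the knockdown control was lower still (-0.84 ± 0.036). EPHX1, the epoxide hydrolase, had 72.3 and 76.4 FPKM with knockdown, against 65.9 and 67.1 FPKM in the knockdown control (0.16 ± 0.04, limma adjusted p = 0.0151), and was below the vector control with knockdown (-0.59 ± 0.04, limma adjusted p = 2.53e-07). Its call against the knockdown control was lost without knockdown replicate 2 or knockdown control replicate 1. ALDH3A1, a dehydrogenase of aromatic and lipid aldehydes, had 1128 and 1085 FPKM with knockdown, against 962 and 937 FPKM in the knockdown control (0.22 ± 0.036, limma adjusted p = 0.00139), and 1043 and 1067 FPKM with overexpression, against 1076 and 1010.2 FPKM in the vector control. The ALDH3A1 knockdown libraries lay above all the others, but the difference from the vector control did not pass (0.086 ± 0.036, limma adjusted p = 0.0563). It was called higher with voom and without vector control replicate 1, and lower with TPM scaling (-0.091) and with the length and GC correction (-0.13), so its direction depends on the scaling. ALDH1A1, the retinaldehyde dehydrogenase often used to mark stem-like tumour cells, had 1846 and 1837 FPKM with knockdown, against 1773 and 1745 FPKM in the knockdown control (0.067 ± 0.028, limma adjusted p = 0.113), and 1966 and 2004 FPKM with overexpression, against 1972 and 2026 FPKM in the vector control.

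HMOX1 was the 1 member that fell with knockdown. It encodes haem oxygenase, which breaks haem down to biliverdin, carbon monoxide and iron, and it answers to several stress factors besides NRF2. HMOX1 had 148 and 146 FPKM with knockdown, against 165 and 175 FPKM in the knockdown control (-0.21 ± 0.038, limma adjusted p = 0.00253), and 159.9 and 164 FPKM with overexpression, against 167 and 171 FPKM in the vector control. As deposited, the knockdown libraries were the lowest of the 8, also against the vector control (-0.20 ± 0.038, limma adjusted p = 0.000635), and the knockdown control did not pass against the vector control (0.0088 ± 0.038, limma adjusted p = 0.846). The difference between the controls depends on the scaling. With TPM scaling HMOX1 was called lower in the knockdown control, and it was also called between the controls with the length and GC correction. The call against the knockdown control was lost with the length and GC correction (-0.08, limma adjusted p = 0.122).

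The ferritins store the iron that haem breakdown frees. FTL had 9375 and 9254 FPKM with knockdown, against 8930.0 and 9239 FPKM in the knockdown control (0.036 ± 0.03, limma adjusted p = 0.426), and 6472 and 6669 FPKM with overexpression, against 6926 and 6653 FPKM in the vector control. FTH1 had 4256 and 4128 FPKM with knockdown, against 4085 and 4033 FPKM in the knockdown control (0.046 ± 0.032, limma adjusted p = 0.325), and 3975 and 4077 FPKM with overexpression, against 3972 and 4179 FPKM in the vector control. FTL was above the vector control in the knockdown control (0.42 ± 0.03) and with knockdown (0.46 ± 0.03, limma adjusted p = 2.24e-07), whereas FTH1 as deposited was not called in either (-0.0054 ± 0.032 and 0.041 ± 0.032, limma adjusted p = 0.278). The FTL difference between the controls turned round to -0.21 with the length and GC correction, and that between knockdown and the vector control was then 0.032 and not called. FTH1 was called lower in both with the correction (-0.39 in the knockdown control and -0.23 with knockdown) and with TPM scaling (-0.23 and -0.14). Other genes, led by ferritin pseudogenes, hold 18.3% of the 50-base windows of FTL and 40.4% of those of FTH1, and exons of BEST1, antisense to FTH1, cover 62.4% of its exonic bases, so both levels are uncertain.

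Neither of the remaining targets passed the test with knockdown against its control. OSGIN1, an oxidative stress-induced growth inhibitor, had 39.9 and 39.6 FPKM with knockdown, against 38.5 and 38.6 FPKM in the knockdown control (0.043 ± 0.047, limma adjusted p = 0.546), and 48.2 and 52.2 FPKM with overexpression, against 49.9 and 48.8 FPKM in the vector control. It was below the vector control with knockdown (-0.30 ± 0.047, limma adjusted p = 0.000143). ABHD4, a lipase of N-acyl phospholipids, had 33.8 and 34.02 FPKM with knockdown, against 35.2 and 35.1 FPKM in the knockdown control (-0.05 ± 0.043, limma adjusted p = 0.439), and 37.7 and 36.7 FPKM with overexpression, against 37.1 and 36.02 FPKM in the vector control. Its difference between knockdown and the vector control sat at the threshold (-0.11 ± 0.043, limma adjusted p = 0.0495) and was kept in 6 of 18 alternatives.

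The overexpression effect and the knockdown effect were compared directly by their difference. This difference reuses the libraries of both effects, so it is not separate support for either. Of 32 members 6 were called lower in overexpression minus knockdown, where 4.02% of all genes were, and 0 higher, where 6.19% were (limma, 10.2% of all genes in either direction). An unadjusted limma p below 0.05 was reached by 16 members and by 2806 of all 10648 genes, in either direction. The voom fit called 11 members lower and 0 higher, where 880 and 811 of all genes were. The 6 members called by limma were GCLC (-0.54 ± 0.064, limma adjusted p = 0.000262), UGDH (-0.34 ± 0.05, limma adjusted p = 0.00157), EPHX1 (-0.26 ± 0.056), AKR1C1 (-0.26 ± 0.048), AKR1C2 (-0.25 ± 0.044) and ALDH3A1 (-0.20 ± 0.051, limma adjusted p = 0.0269). All 6 were also called higher in knockdown against its control. The ALDH3A1 call was lost without overexpression replicate 1, vector control replicate 1, knockdown replicate 1 or knockdown control replicate 2, and the EPHX1 call without knockdown replicate 2. With the length and GC correction the AKR1C1 call was lost.

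Fold changes of the members also followed gene length and GC content, to a different degree than those of all genes. Across the 32 members, Spearman rho between the fold change in knockdown against knockdown control and exonic length was 0.58, and with GC content -0.47. In knockdown control against vector control the values were -0.50 and 0.19. The members share the same libraries, and these are descriptions. After the correction for both, limma called 16 members higher and 0 lower with knockdown against its control, where 794 and 852 of all 10648 genes were. The calls of SLC7A11, GCLM, TXNRD1, ME1, IDH1, AKR1C3 and HMOX1 were lost, and KEAP1, PRDX1, FTL, FTH1 and OSGIN1 were called higher. In the knockdown control against the vector control, the corrected fit called 22 members lower and 8 higher, where 2910 and 3320 of all genes were. Its median over the members was -0.26, against 0.024 over all genes.

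**Figure D4:**
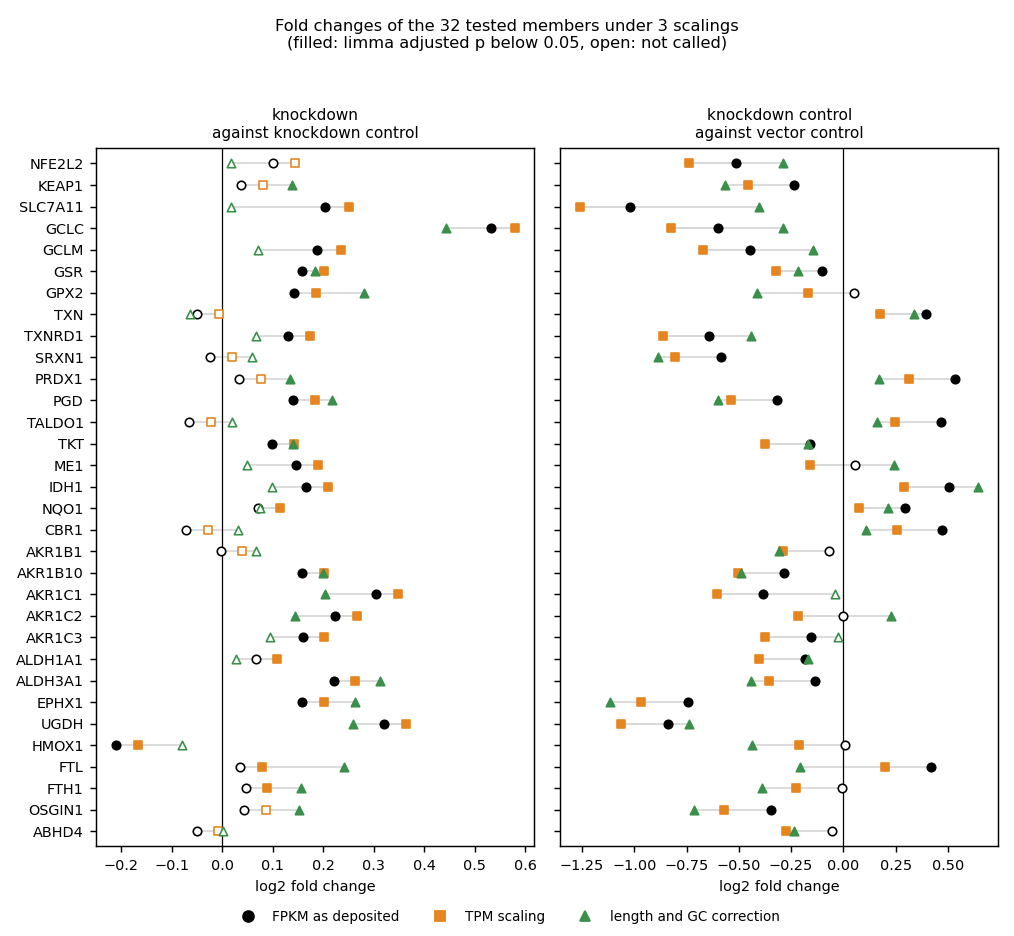
Log2 fold change (x axis) of each tested member (rows) with FPKM as deposited (circles), TPM scaling (squares) and the length and GC correction (triangles), filled where the limma adjusted p is below 0.05. GCLC stays between 0.44 and 0.58 on the left, and FTL crosses 0 on the right, at -0.21 with the correction.

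Other genes of the pathway were called about as often as all genes. Of 134 further genes in 6 lists, 114 were tested, and 17 rose and 12 fell with knockdown against its control, where 11.3% and 10.9% of all genes did, with a median of 0.007 against 0.016 over all genes. The counts of single lists below are small and are read against the same shares. Among 15 genes that control NRF2, 2 rose and 3 fell. SQSTM1, an autophagy receptor that sequesters KEAP1 and is itself an NRF2 target, had 774 and 759 FPKM with knockdown, against 926 and 938 FPKM in the knockdown control (-0.28 ± 0.028, limma adjusted p = 4.09e-05), the same direction as HMOX1. MAFF, a small MAF partner of NRF2, had 11.5 and 11.8 FPKM with knockdown, against 27.7 and 30.8 FPKM in the knockdown control (-1.26 ± 0.074, limma adjusted p = 3.7e-07), and 7.16 and 8.12 FPKM in the vector control. CUL3, the scaffold of the ligase that KEAP1 serves, rose (0.18 ± 0.052, limma adjusted p = 0.0318; called in 11 of 18 alternatives), while MAFG, another small MAF (-0.083 ± 0.045, limma adjusted p = 0.214) and the repressor BACH1 (0.11 ± 0.093, limma adjusted p = 0.434) were not called. BACH1 had 3.78 and 3.73 FPKM with knockdown and 3.78 and 3.06 FPKM in the knockdown control, against 6.76 and 6.13 FPKM in the vector control.

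Among 25 tested glutathione genes outside the members 2 rose and 5 fell with knockdown against its control, and among 15 further thioredoxin and peroxide genes 1 rose and 2 fell, where 11.3% and 10.9% of all genes did. SLC3A2, the heavy chain that pairs with SLC7A11, had 322 and 319 FPKM with knockdown, against 378 and 392 FPKM in the knockdown control (-0.26 ± 0.033, limma adjusted p = 0.000215), opposite in sign to SLC7A11. GPX1, the ubiquitous glutathione peroxidase, had 280.5 and 269 FPKM with knockdown, against 346 and 354 FPKM in the knockdown control (-0.35 ± 0.049, limma adjusted p = 0.000497), and 140.3 and 151 FPKM in the vector control. PRDX5 fell (-0.18 ± 0.035, limma adjusted p = 0.00414) and the mitochondrial PRDX3 rose (0.14 ± 0.036, limma adjusted p = 0.018). In the knockdown control against the vector control, 19 of the 25 glutathione genes were called higher and 0 lower by limma. Of the 15 thioredoxin and peroxide genes, 11 were called higher and 1 lower. Of all genes, 36.8% were called higher and 31.8% lower. The 3 members of cystine import and glutathione synthesis were all lower. Fold changes followed gene length there (Spearman rho -0.47 over all genes), and these 3 members have exonic lengths of 5420 to 9645 bases. With the length and GC correction, all 3 were still called lower in the knockdown control against the vector control. The list counts were not taken under other scalings.

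Of 14 further NADPH genes 2 rose and 0 fell with knockdown against its control, where 11.3% and 10.9% of all genes did. They were MTHFD1 (0.21 ± 0.041, limma adjusted p = 0.00456) and RPE (0.16 ± 0.051; called in 9 of 18 alternatives). Of 29 genes of drug metabolism and export 6 rose and 2 fell, CYP24A1 (0.28 ± 0.046, limma adjusted p = 0.00138) and CYP1B1 (0.30 ± 0.056) among those that rose. Of 16 haem and iron genes 4 rose and 0 fell. TFRC, the transferrin receptor, had 49.3 and 49.96 FPKM with knockdown, against 44.2 and 41.9 FPKM in the knockdown control (0.20 ± 0.042, limma adjusted p = 0.00593), and 73.9 and 71.9 FPKM in the vector control, and ACO1, an iron-sensing RNA-binding protein, was at 0.25 ± 0.052.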

How the data were processed

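Total RNA of 8 A549 libraries was sequenced, 2 in each of 4 groups named from the sample titles. FPKM values, a column per library, were deposited by the authors as 1 table. The tools HTSeq, featureCounts, R 3.2.0 and HISAT2 and the build hg38 (GRCh38) are named, per the submitters' processing notes, without roles. Strand, annotation and filters: not given in the sources used here. FPKM values were whole multiples of the value of a single read within 0.02 reads for all 17056 genes, which gave recovered reads and depth. PCR duplicates cannot be told from molecules.

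limma 3.58.1 in R 4.3.3 (trend, two-sided) was fitted on log2(FPKM + 1) over the 10648 genes averaging at least 1 FPKM, all 4 groups in the same fit, with 4 residual degrees of freedom, and p-values were adjusted by Benjamini-Hochberg over all of them. Fold changes are on that scale, given ± SE, and understate changes of low genes. With 2 libraries a group, no exact permutation test can reach the threshold. Replicates were kept separate, since their counts differed beyond sampling noise (chi-square over degrees of freedom 5.11 to 5.88). The fit, the read recovery and the length and GC correction were tested on simulated data.

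Alternatives were pseudocount, filter, scaling, fitted libraries, replicate block, length and GC correction, voom on recovered reads and leaving out each library. Length, GC and positions came from GENCODE release 29 (GRCh38), which gave values for 99.8% of genes tested. The members and lists were chosen with earlier results of these data known. Members are given with every library's value where they had the 2 smallest p-values of their role in knockdown against its control, the 3 smallest of the 33 in any other comparison, or the 3 highest or lowest levels; further genes named are CUL3, BACH1, SQSTM1, MAFG and the 2 smallest p-values per list. Another gene of that rule is not reported here.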

Additional observations from a re-analysis of the deposited data

How the results depend on the processing

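In knockdown against knockdown control, the number of members called higher ran between 8 and 16 over the 8 fits that each left out 1 library, against 17 with all, and was 15 with no filter on low genes, 21 with TPM scaling and 18 with voom. HMOX1, the member called lower, was lost with the length and GC correction, with or without the replicate block (0 called lower in each). With TPM scaling knockdown against vector control called 22 members lower, where 4566 of all 10648 genes were. The difference between effects then called 15 members lower, where 763 of all genes were. With the length and GC correction that difference called 10 lower, where 218 of all genes were. Adding the replicate block to the correction gave 10, where 194 were, and voom gave 11, where 880 were. Of all genes called in knockdown against knockdown control, 50.8% were higher as deposited, 66.8% with TPM scaling, 62.1% with median-of-ratios scaling and 39.3% with no filter; of those called in the difference between effects, 60.6%, 41.9%, 48.1% and 72.6%. FTL in knockdown control against vector control turned to -0.21, and GPX2 in knockdown against vector control to -0.13, with the length and GC correction, and both took the same values with the replicate block added. Same-numbered libraries did not visibly deviate together (r between -0.061 and 0.062 over 6 pairs of groups). The labels do not say whether the numbers mark a pairing, and these values cannot settle it. The replicate block alone left 17 members higher and 1 lower in knockdown against knockdown control, where 1166 and 1149 of all 10648 genes were. In knockdown against vector control it lost ABHD4 and added ALDH3A1 (11 higher, 13 lower, where 3651 and 3056 of all genes were). It added AKR1C3 in the difference between effects (7 lower, where 413 of all genes were). Having 2 libraries a group limits the precision, and leaving a group with 1 library assumes that it varies like the others.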
